A study of Mus musculus with 46 samples.

Results

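The fasting response of AgRP neurons was set against that of POMC neurons in the same nucleus, gene by gene, as the fasted minus fed effect in AgRP neurons minus the fasted minus fed effect in POMC neurons. The members were chosen by group and not by any measured value: all 11 libraries of RNA bound to tagged ribosomes from fed or fasted mice of the AgRP and POMC lines, out of 46 samples in the series. Of 31854 genes in the count table, 13442 had a mean over 1 CPM, a count scaled to the library total, and were tested.

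Each library was a pool of 4 arcuate nuclei from male mice that were 6 to 11 weeks old, on a C57BL/6J background as far as the study's methods state it. The NuTRAP allele carries a GFP-tagged L10a ribosomal subunit behind a stop cassette that Cre removes, and the Cre came from AgRP-IRES-Cre in the AgRP line and from POMC-IRES-Cre in the POMC line. Cre drivers mark every cell that has expressed the gene, so cells with a past expression of *Pomc* would carry the tag too. Fed mice ate *ad libitum* and fasted mice went without food overnight, and both had received PBS vehicle. There were 3 fed AgRP libraries (numbered 1, 3 and 4), 4 fasted AgRP libraries (1 to 4) and 2 fed and 2 fasted POMC libraries (1 and 2 in each state). The protocol that accompanies the POMC samples names the AgRP line alone, so pool size and age are taken to hold for both lines. Neuron type, mouse line and any difference in handling between the lines cannot be told apart. In the main RNA fit the p-values measure how far the fasted minus fed step varies between same-numbered pairs of pools. The spread between pools that a same-numbered pair shares is taken out.

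AgRP neurons of the arcuate nucleus release the peptides AgRP and NPY together with GABA and drive food seeking when energy is short. POMC neurons next to them cleave the POMC precursor to melanocortin peptides that restrain feeding, and AgRP is an antagonist at the receptors for those peptides. A neuron that secretes peptides passes them through the endoplasmic reticulum (ER), where chaperones such as BiP fold them and the unfolded protein response (UPR) matches the folding machinery to the load, and then packs them with granins into dense-core vesicles.

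Totals lay between 25581041 and 53217053 counted reads per library. The line markers went with the labels: the summed level of 8 POMC neuron markers lay between 1610 and 3100 CPM in POMC and between 106 and 132 CPM in AgRP libraries, and that of 10 AgRP neuron markers between 2000 and 6750 CPM in AgRP and between 227 and 324 CPM in POMC libraries. In 4 libraries the astrocyte glutamate transporter *Slc1a2* stood apart, with 20180 CPM in AgRP fed 4, 25670 CPM in AgRP fasted 4, 23340 CPM in POMC fed 2 and 27060 CPM in POMC fasted 2, against 2378 to 6268 CPM in the other 7. These 4 form 1 fed and fasted pair in each line. The total counts and several lists and genes are given with and without them. The counts of other lists, such as those of clock genes and proteasome subunits, are not given without them. In bulk RNA, fewer cells of a type and less RNA per cell cannot be told apart.

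Most genes called for fasting were called in AgRP neurons, and most genes with a called difference lay above the fed level in AgRP and below it in POMC neurons. They included granins such as *Vgf*, ER chaperones such as *Hspa5* and the leptin receptor *Lepr* on the higher side, and clock repressors such as *Per3* on the lower side. Calls needed an absolute log2 effect over 0.5 and, in edgeR's quasi-likelihood test, a false discovery rate (FDR) under 0.05 after Benjamini-Hochberg adjustment over all genes tested. The replicate number within a line entered as a block, since same-numbered libraries deviated together. The fasting effect was higher in AgRP than in POMC neurons for 506 genes (3.76%) and lower for 213 (1.58%). Fasting raised 540 genes (4.02%) and lowered 414 (3.08%) in AgRP neurons, and it raised 3 (0.0223%) and lowered 7 (0.0521%) in POMC neurons. At an unadjusted p under 0.05, 923 genes were above and 917 below their fed level in POMC neurons, and DESeq2 with the same block called 25 and 52.

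The block decided most of these calls. Without it the difference was called for 11 genes above and 2 below, although all 719 genes kept their direction and 605 of them had an unadjusted p under 0.05. The library AgRP fasted 2 has no fed partner, so its own block absorbed it in every value given here. Without the 4 libraries high in *Slc1a2* the counts were 1008 and 833, with the POMC effect then resting on 1 pair that is assumed to vary as the AgRP pairs do. Every single library left out moved 1 or both counts by over 1.5 times, except AgRP fasted 2 (505 and 213). The counts were 142 to 149 and 16 to 17 without either library of the POMC pair numbered 1, 224 to 230 and 89 to 93 without either of the pair numbered 2, 252 to 273 and 57 to 76 without a library of the AgRP pairs numbered 1 and 3, and 673 to 678 and 493 to 497 without one of the AgRP pair numbered 4.

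**Figure D1:**
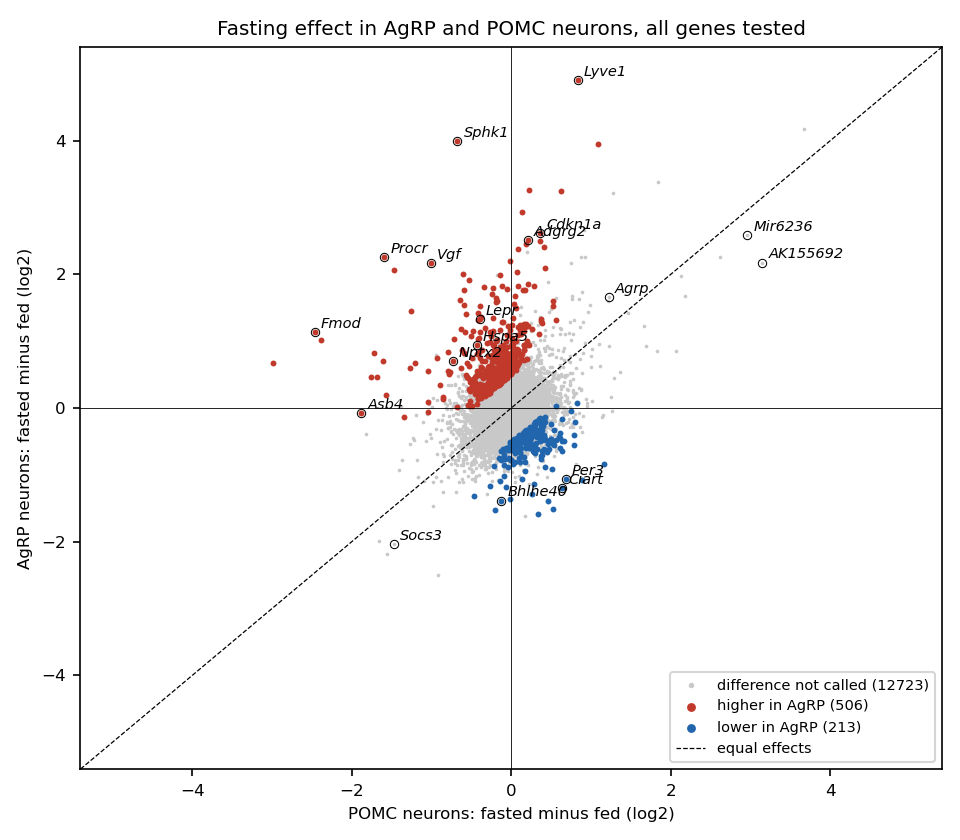
Fasting effect (fasted minus fed, log2) of each of the 13442 genes tested in POMC neurons (horizontal axis) and AgRP neurons (vertical axis). Red points are the 506 genes with a higher and blue points the 213 with a lower effect in AgRP neurons, grey points were not called, and the dashed line marks equal effects. Called genes spread mainly along the vertical axis.

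Among the 506 genes with a higher effect in AgRP neurons, 298 were also raised in AgRP neurons on their own and 6 were lowered in POMC neurons on their own. The effect was above 0 in AgRP and below 0 in POMC neurons for 408 of them and above 0 in both for 95. The median effect of the 506 was 0.57 in AgRP and -0.17 in POMC neurons. Of the 213 genes with a lower effect, 102 were lowered in AgRP neurons, 179 were below 0 in AgRP and above 0 in POMC neurons, and 32 were below 0 in both, with medians of -0.49 and 0.23. Markers of several, not all, other cell types lay on this lower side without a call. The median difference was -0.38 for 9 oligodendrocyte markers (0 above 0), -0.24 for 5 precursor markers (0 above 0) and -0.32 for 8 microglia markers (3 above 0). It was -0.27 for 11 endothelial and mural markers (1 above 0) and -0.15 for 10 astrocyte markers (1 above 0). On the other side, 11 tanycyte and ependymal markers had a median of 0.09 (7 above 0, 1 called higher). The leptomeningeal fibroblast markers described below had 1.24. Summed oligodendrocyte levels overlapped between fed (612 to 926 CPM) and fasted (546 to 837 CPM) AgRP libraries. So did those of microglia markers (26.4 to 46.2 and 20.3 to 43.6 CPM), of which 2 fell in AgRP neurons by call. Within the AgRP pairs 1, 3 and 4, however, both sums fell each time. Oligodendrocyte markers went from 841 to 573, 612 to 546 and 926 to 837 CPM, and microglia markers from 45.9 to 21.7, 26.4 to 22.0 and 46.2 to 43.6 CPM. In the POMC pairs 1 and 2 they went from 574 to 518 and 872 to 1070 CPM, and from 44.8 to 27.3 and 53.7 to 57.6 CPM. Summed astrocyte markers fell in the AgRP pairs 1 and 3, from 4630 to 2940 and from 4020 to 2980 CPM. They rose in the AgRP pair 4, from 21100 to 26800 CPM. In the POMC pairs 1 and 2 they went from 6570 to 7040 and from 24300 to 27600 CPM. The part of such cells in the lower differences was not tested. The median difference over all genes tested was -0.01. Fasted minus fed values of same-numbered libraries did not overlap between the lines for 505 of the 506 and for all 213, against 41.2% of all genes tested. These numbers describe genes that the test had already selected.

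A gene raised in AgRP neurons was not by that alone different between the lines. Of the 540 genes raised there, 55.2% had a called difference, and of the 414 lowered, 24.6%. Genes lowered in AgRP neurons were below 0 in POMC neurons in 71.0% of cases, against 49.4% of all genes tested, and genes raised in AgRP neurons were above 0 in POMC neurons in 54.3%, against 50.6%. Across the 13442 genes, fasted minus fed values of the 3 AgRP pairs correlated with each other at Pearson's r of 0.542 to 0.747, those of the 2 POMC pairs at 0.337, and AgRP with POMC pairs at 0.0191 to 0.295. Genes within a library are not independent, and the 2 POMC libraries per state gave larger errors, with a median standard error (SE) of 0.11 for the POMC effect against 0.09 for the AgRP effect.

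Among granins and secreted neuropeptides, 6 genes had a higher fasting effect in AgRP than in POMC neurons. *Vgf* encodes a secreted precursor of several neuropeptides and lies on chromosome 5 from 137026392 to 137033351 of GRCm38. It was at 368, 447 and 367 CPM in the fed AgRP libraries 1, 3 and 4 and at 1565, 1887, 2325 and 1507 CPM in the fasted AgRP libraries 1 to 4. In POMC neurons it was at 1107 and 660 CPM when fed and at 406 and 444 CPM when fasted. Every fasted AgRP library thus lay above every fed one, while both fasted POMC libraries lay below both fed ones. *Vgf* rose in AgRP neurons by 2.17 on the log2 scale, the POMC effect of -1.01 did not pass the test (FDR = 0.0713), and the difference of 3.18 did (SE 0.22, 95% interval 2.69 to 3.67, edgeR FDR = 0.000168). The call held in all 19 alternatives, including the fit without the block (FDR = 0.0144).

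Secretogranin II, the granin encoded by *Scg2*, was at 938, 1459 and 1010 CPM in fed and at 1993, 3149, 3668 and 2163 CPM in fasted AgRP libraries. Its POMC levels were 1372 and 1063 CPM when fed and 1236 and 977 CPM when fasted. It rose in AgRP neurons without overlap, whereas fed and fasted POMC libraries overlapped, and the difference was 1.31 (SE 0.12, FDR = 0.000703). *Nts*, which encodes neurotensin, went from 5.95 to 6.67 CPM in fed to 20.6 to 52.2 CPM in fasted AgRP libraries and was at 6.41 CPM or less in each of the 4 POMC libraries, a difference of 2.30 (SE 0.32, FDR = 0.00382). The other members called for the difference were *Sst* (somatostatin, 0.91), *Chga* (chromogranin A, 0.61) and *Scg3* (secretogranin III, 0.52), of which *Chga* (0.23) and *Scg3* (0.42) did not pass within AgRP neurons and each lost the call of the difference in 9 of 19 alternatives. In all, 6 of the 23 genes tested on the neuropeptide and granin list had a higher effect in AgRP neurons and 0 a lower one. The shares of all genes tested were 3.76% and 1.58%, and the list's median difference was 0.39. The count of list members called higher was 4 without any 1 of the 4 POMC libraries, 9 without either AgRP library numbered 4 and 1 without the block. It was 10 higher and 2 lower without the 4 libraries high in *Slc1a2*. The prohormone processing list held enzymes that cut and amidate peptide precursors, and also non-enzymes such as *Scg5* and *Pcsk1n*. Of its 12 genes tested, 2 were called higher, against 3.76% of all genes. They were *Pcsk1* (prohormone convertase 1, 0.70) and *Pam* (the amidating enzyme, 0.58), which lost the call in 7 and 9 of 19 alternatives.

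**Figure D2:**
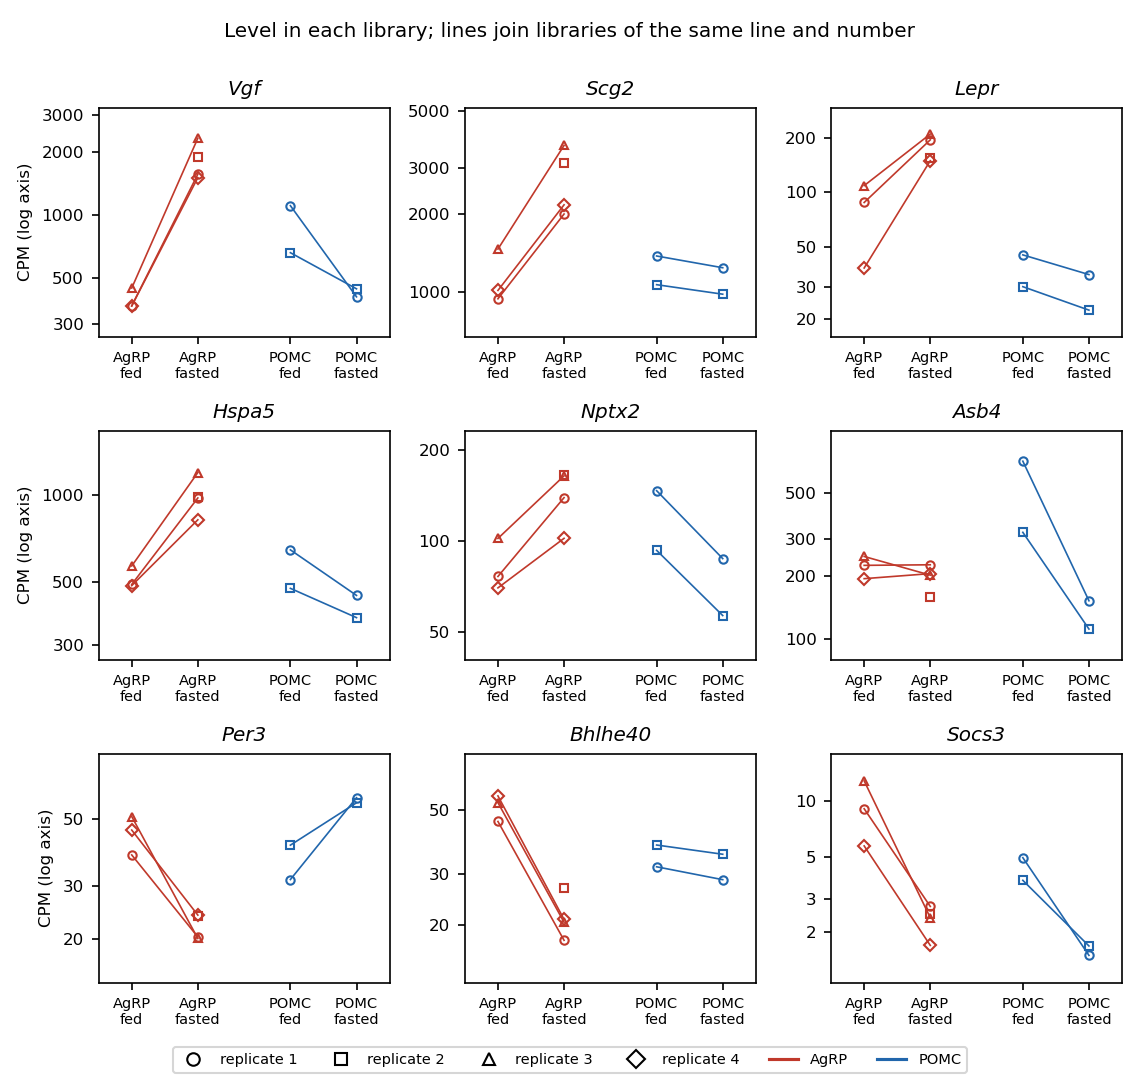
Level in CPM (log axis) of 9 genes in each of the 11 libraries, AgRP in red and POMC in blue, with lines joining the fed and fasted libraries of the same number. *Vgf*, *Scg2*, *Lepr*, *Hspa5* and *Nptx2* climb in the AgRP libraries and not in the POMC libraries, *Asb4* drops in the POMC libraries, *Per3* moves opposite ways, and *Socs3* drops in both lines.

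The peptides that define the neurons behaved otherwise. *Agrp* was at 315, 508 and 334 CPM in fed and at 729, 1458, 1985 and 1161 CPM in fasted AgRP libraries, and it rose there by 1.66 (FDR = 0.00218). In POMC libraries it was at 5.92 and 9.72 CPM when fed and at 27.7 and 11.0 CPM when fasted, so that only the pair numbered 1 showed a clear step. The difference in *Agrp* was 0.43 with an interval of -0.56 to 1.43 (FDR = 0.602), and it was -0.57 without either library of the POMC pair numbered 2. *Npy*, the second peptide of AgRP neurons, had a difference of 0.39 (interval -0.66 to 1.45) and -0.71 without either library of that pair. Without a library of the POMC pair numbered 1 it was 1.52 to 1.54 and called (FDR = 0.0372 and 0.0356), so the value for *Npy* rests on which POMC pair is kept. *Pomc* was at 2080 and 1284 CPM in fed and at 1510 and 1132 CPM in fasted POMC libraries, an effect of -0.32 that did not pass the test (FDR = 0.201), and *Cartpt*, which encodes the CART peptide of POMC neurons, had an effect of -0.48 (FDR = 0.0821).

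Genes of the ER made up the pair of lists with the most calls. Of 31 genes tested on the list of the UPR and ER chaperones, 18 had a higher effect in AgRP neurons and 0 a lower one. Of all genes tested, 3.76% were called higher and 1.58% lower. The list's median difference was 0.65. Within AgRP neurons 13 of them rose, against 4.02% of all genes tested. In POMC neurons 0 passed the test, where 0.0223% of all genes were called raised and 0.0521% lowered. There 24 of 31 were at or below the fed level, against 49.4% of all genes below it. The ER translocon and glycosylation list holds the channel and the enzymes that receive new secretory proteins. It gave 23 of 38 higher and 0 lower with a median of 0.60, against the same shares of all genes. These counts fell to 6 and 11 without POMC fed 1, to 7 and 11 without POMC fasted 1, to 16 and 13 without either library of the POMC pair numbered 2, and to 0 and 0 without the block, where the medians were 0.62 and 0.55. Without the 4 libraries high in *Slc1a2* they were 18 and 25.

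*Hspa5* encodes BiP, the main Hsp70 chaperone of the ER. It was at 489, 567 and 484 CPM in fed and at 978, 989, 1199 and 821 CPM in fasted AgRP libraries, with no overlap. In POMC libraries it was at 645 and 474 CPM when fed and at 448 and 375 CPM when fasted. The AgRP effect of 0.95 passed the test, the POMC effect of -0.43 did not (FDR = 0.115), and the difference was 1.38 (SE 0.12, FDR = 0.00055). *Manf*, an ER-resident secreted protective factor, went from 55.0 to 62.6 CPM in fed to 97.3 to 127 CPM in fasted AgRP libraries and from 60.9 and 45.3 CPM to 43.6 and 36.1 CPM in POMC libraries, a difference of 1.45 (SE 0.10, FDR = 0.000124).

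The disulfide isomerases *Pdia6* (1.25), *P4hb* (1.01), *Pdia3* (0.94) and *Pdia4* (0.88), the Hsp70 partners *Hyou1* (0.97) and *Dnajb11* (0.79), the lectin chaperone *Calr* (0.96) and the ER form of Hsp90, *Hsp90b1* (0.80), were called too. So were 2 genes of 1 sensing arm. They were *Xbp1*, the transcription factor whose mRNA is spliced in the UPR (0.65), and *Ern1*, the kinase and nuclease that splices it (0.61). The sensors *Eif2ak3* (-0.06) and *Atf6* (0.19) were not called, nor were *Herpud1* (-0.35) and *Ddit3* (-0.29). *Edem2*, which directs misfolded glycoproteins to degradation, had a difference of 1.14. In the translocon, *Sec61b*, a subunit of the channel, was at 14.6 to 16.6 CPM in fed and at 29.6 to 42.1 CPM in fasted AgRP libraries and went from 15.4 and 13.5 CPM to 13.5 and 9.72 CPM in POMC libraries, a difference of 1.53 (SE 0.15, FDR = 0.000889). The oligosaccharyltransferase subunits *Ostc* (1.23) and *Rpn1* (1.03) followed.

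The promoters of the chaperone genes carry a known response element, and 3 are shown because they share it while their transcripts differed in fasting response between the lines. The element searched was the ER stress response element (ERSE), CCAAT and CCACG with 9 bases between them, on either strand, in the 250 bases before and 50 bases after the RefSeq start site of GRCm38.p6. It was found in 15 of 9944 tested genes with a promoter sequence (0.151%), in 7 of 383 with a higher effect (1.83%), in 0 of 143 with a lower effect and in 8 of 27 on the chaperone list (29.6%). The 250 bases before the start site of *Hspa5* (chr2:34771840-34772089, plus strand), *Calr* (chr8:84846932-84847181, minus strand) and *Hsp90b1* (chr10:86705445-86705694, minus strand) follow, 5′ to 3′ on the gene's strand, with the parts of the element in capitals.
Hspa5: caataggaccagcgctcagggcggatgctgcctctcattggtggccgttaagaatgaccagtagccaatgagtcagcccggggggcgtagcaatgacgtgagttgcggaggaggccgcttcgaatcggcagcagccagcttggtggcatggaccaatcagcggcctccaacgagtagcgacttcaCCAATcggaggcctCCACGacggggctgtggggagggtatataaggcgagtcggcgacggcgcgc
Calr: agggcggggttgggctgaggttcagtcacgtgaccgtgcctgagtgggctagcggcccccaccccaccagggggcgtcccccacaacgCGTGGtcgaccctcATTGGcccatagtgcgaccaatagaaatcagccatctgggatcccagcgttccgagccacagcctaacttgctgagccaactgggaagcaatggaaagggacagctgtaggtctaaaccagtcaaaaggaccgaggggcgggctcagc
Hsp90b1: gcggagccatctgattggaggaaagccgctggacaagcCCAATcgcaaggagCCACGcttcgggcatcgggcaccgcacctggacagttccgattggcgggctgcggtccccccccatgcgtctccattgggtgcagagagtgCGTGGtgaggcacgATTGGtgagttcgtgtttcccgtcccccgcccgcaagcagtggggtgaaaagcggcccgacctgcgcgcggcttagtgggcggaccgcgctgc
The other 4 of the 7 were *Creld2*, *Dnajc3*, *Pdia6* and *Zfp57*. A match describes the sequence alone. Chromatin at the *Hspa5* start site of AgRP nuclei was not called changed in ATAC-seq, which measures open chromatin: its peak was at 83.0 and 95.3 CPM in fed and at 77.1 and 74.9 CPM in fasted nuclei (FDR = 0.18).

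Larger complexes of protein production and turnover had smaller shares of calls. Of 36 proteasome subunits tested, 8 were called higher and 0 lower (median 0.43), with *Psmb3* at 0.80. That count was 0 without POMC fed 1, POMC fed 2 or POMC fasted 2, 2 without POMC fasted 1, 3 without either AgRP library numbered 3, 5 without AgRP fasted 1, 16 without either AgRP library numbered 4 and 0 without the block. Of 77 cytosolic ribosomal proteins, 4 were called (median 0.25), and of 70 respiratory chain subunits, 2 (median 0.18), shares near the 3.76% of all genes called higher. *Rpl10a*, the gene whose GFP-tagged form was used for the pull-down, was among the ribosomal genes called, with a difference of 0.91 (SE 0.11, FDR = 0.00248). Reads of the transgene and of the mouse gene were not separated.

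**Figure D3:**
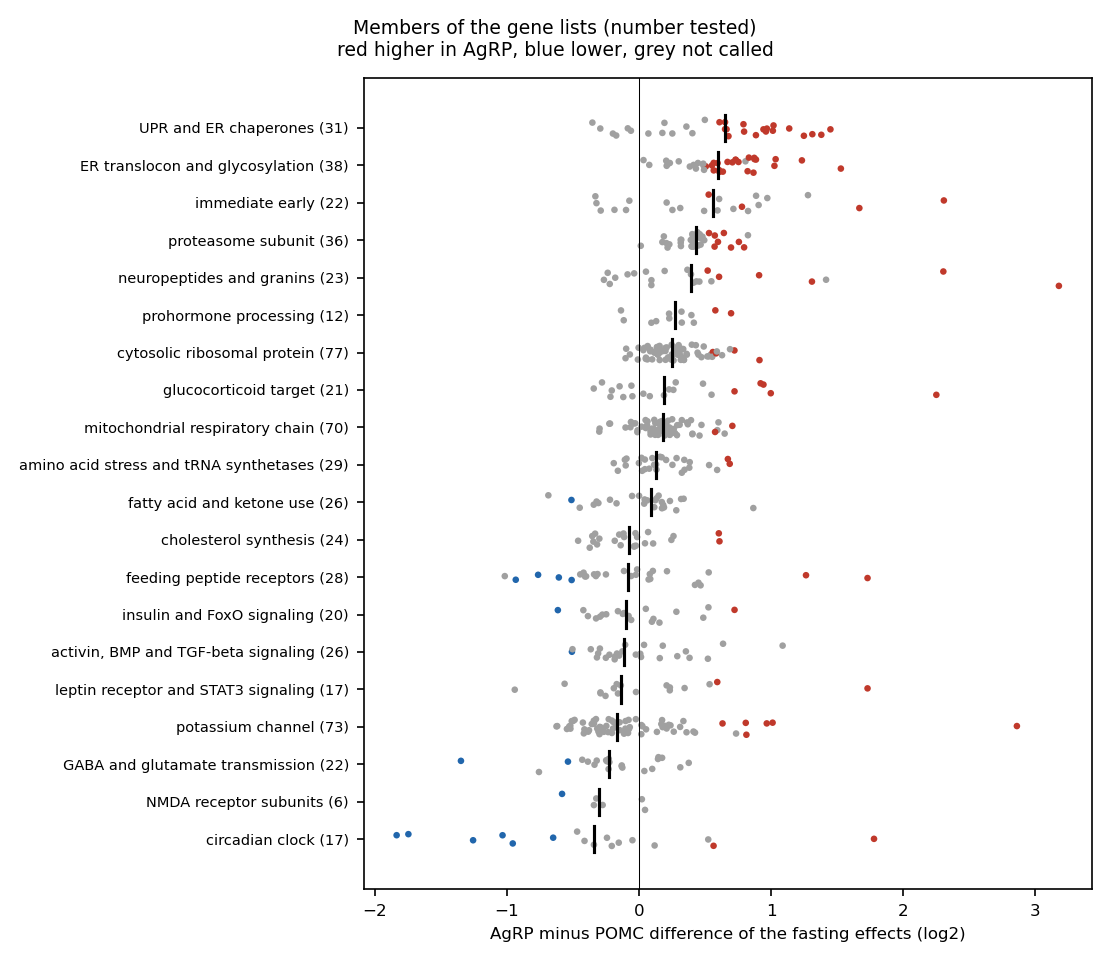
Difference of the fasting effects (AgRP minus POMC, log2) for each tested member of 20 gene lists, with the number tested in parentheses and the list median as a black bar. Red members were called higher and blue members lower in AgRP neurons. The ER lists lie almost wholly to the right of 0 and the circadian clock list holds the lowest values.

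Immediate early genes, which neurons transcribe within minutes of activity, differed in part. Of 22 tested, 4 had a higher effect in AgRP neurons and 0 a lower one, against 3.76% and 1.58% of all genes, with a median of 0.56. Within AgRP neurons 11 passed the test as raised, against 4.02% of all genes. The 4 became 2 without AgRP fed 1 or fasted 1, 6 to 7 without either AgRP library numbered 4 and 0 without the block, and 6 without the 4 libraries high in *Slc1a2*. *Fosb* was at 9.21, 7.91 and 16.2 CPM in fed and at 17.6, 16.4, 14.4 and 22.1 CPM in fasted AgRP libraries, with an overlap between states. In POMC neurons it was at 10.3 and 16.1 CPM when fed and at 4.45 and 9.97 CPM when fasted, and the difference was 1.67 (SE 0.21, FDR = 0.00248). *Atf3*, a stress-induced transcription factor, had 4.19 to 6.21 CPM in fed and 5.52 to 9.97 CPM in fasted AgRP libraries and went from 4.76 and 2.41 CPM to 1.58 and 0.764 CPM in POMC libraries, a difference of 2.31 (SE 0.30, FDR = 0.00234), while its POMC effect of -1.61 missed the threshold (FDR = 0.0606). *Fos*, *Nr4a1* and *Npas4* rose in AgRP neurons by 1.24, 1.44 and 1.39, but their differences of 0.91, 0.97 and 1.28 did not pass (FDR = 0.122, 0.0964 and 0.149).

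Receptors for feeding signals split in both directions. *Lepr*, the leptin receptor, on chromosome 4 from 101717404 to 101815352, was at 87.7, 109 and 38.2 CPM in fed and at 194, 154, 209 and 149 CPM in fasted AgRP libraries. In POMC neurons it was at 45.1 and 30.1 CPM when fed and at 35.1 and 22.4 CPM when fasted. It rose in AgRP neurons by 1.34 with no overlap, its POMC effect was -0.39 (FDR = 0.408), and the difference was 1.73 (SE 0.24, FDR = 0.00451). That call was lost without POMC fed 1 and without POMC fasted 1, and the difference was 1.41 without the 4 libraries high in *Slc1a2*, of which AgRP fed 4 holds the lowest *Lepr* level among AgRP libraries. *Nmbr*, the receptor for neuromedin B, was the other member called higher (1.26).

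The 4 members of the receptor list called lower were *Npy2r*, *Mrap2*, *Sstr1* and *Cnr1*. *Npy2r*, an autoreceptor for NPY, fell in AgRP neurons from 267, 324 and 232 CPM to 148, 96.5, 113 and 144 CPM and was at 122 and 83.2 CPM in fed and 117 and 77.1 CPM in fasted POMC libraries, a difference of -0.93 (SE 0.20, FDR = 0.0254). *Mrap2*, an accessory protein of melanocortin and ghrelin receptors, went from 37.4 to 41.8 CPM to between 23.9 and 26.6 CPM in AgRP neurons and from 44.5 and 39.7 CPM to 46.8 and 43.7 CPM in POMC neurons (difference -0.76, FDR = 0.00427). The somatostatin receptor *Sstr1* (-0.61) and the cannabinoid receptor *Cnr1* (-0.51) were called lower as well, both with an AgRP effect of less than 0.5 in size. In all, 2 of 28 receptors tested were called higher and 4 lower, against 3.76% and 1.58% of all genes. The median was -0.09, and the melanocortin receptors *Mc3r* (-0.06) and *Mc4r* (-0.01) were not called. Of 19 alternatives, *Cnr1* lost its call in 10, *Nmbr* in 9, *Npy2r* in 8, *Sstr1* in 6, *Lepr* in 3 and *Mrap2* in 1.

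Downstream of leptin, *Socs3* was lower in every fasted than in every fed library of both lines. *Socs3*, the feedback inhibitor that STAT3 induces, was at 9.10, 12.8 and 5.76 CPM in fed and at 2.73, 2.48, 2.37 and 1.69 CPM in fasted AgRP libraries. In POMC libraries it was at 4.98 and 3.76 CPM when fed and at 1.49 and 1.68 CPM when fasted. The fed and fasted libraries did not overlap in either line. The effects were -2.04 in AgRP (FDR = 8.5e-05) and -1.47 in POMC neurons (FDR = 0.0713), and their difference of -0.56 did not pass (FDR = 0.319, interval -1.27 to 0.14), which does not show that they are equal. Of the 17 genes tested on the leptin receptor and STAT3 list, 12 were below 0 in AgRP and 16 in POMC neurons. In POMC neurons 49.4% of all genes tested were below 0. In AgRP neurons the list's median effect was -0.39, against -0.002 for all genes. For the difference 2 were called higher and 0 lower, against 3.76% and 1.58% of all genes, and the list's median was -0.14. *Stat3* itself was 1 of the 2, with effects of 0.05 and -0.54 and a difference of 0.59 (FDR = 0.0158).

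Clock genes made up the list with the most calls below 0. Of 17 clock genes tested, 6 had a lower effect in AgRP neurons and 2 a higher one, against 1.58% and 3.76% of all genes. The median was -0.34. *Per3*, a repressor of the clock loop, was at 38.1, 51.0 and 46.0 CPM in fed and at 20.4, 23.8, 20.1 and 24.1 CPM in fasted AgRP libraries. In POMC libraries it was at 31.6 and 41.0 CPM when fed and at 58.9 and 56.6 CPM when fasted. Neither line showed an overlap, and the lines moved in opposite directions by value. The AgRP effect was -1.06 (FDR = 0.000223), the POMC effect of 0.68 did not pass (FDR = 0.0821), and the difference of -1.75 (SE 0.17, FDR = 0.000864) was called in all 19 alternatives.

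*Bhlhe40*, a light- and hormone-responsive repressor, fell in AgRP neurons from 45.7, 53.0 and 56.0 CPM to 17.8, 26.9, 20.5 and 21.0 CPM and was at 31.9 and 37.9 CPM in fed and 28.8 and 35.2 CPM in fasted POMC libraries. Its difference was -1.26 (SE 0.11, FDR = 0.000418). The repressor genes *Ciart* (-1.84), *Nr1d2* (-1.03), *Per2* (-0.96) and *Bhlhe41* (-0.65) had lower effects too. *Nfil3*, a repressor that acts on D-box elements, went up from between 10.6 and 14.8 CPM to between 34.5 and 40.0 CPM in AgRP neurons and from 9.94 and 7.18 CPM to 8.57 and 6.55 CPM in POMC neurons, a difference of 1.78 (SE 0.15, FDR = 0.000369), and the activator *Arntl* had 0.56. Without POMC fed 1 the list gave 3 lower and 1 higher, and without the block 1 lower and 0 higher.

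The promoter of *Ciart* is shown because it holds 3 copies of the E-box CACGTG, the site of the clock activators. At least 1 copy was found in 5 of 15 clock genes with a promoter sequence, against 11.5% of all 9944. It is given for the 250 bases before the start site (RefSeq, GRCm38.p6, chr3:95882229-95882478, minus strand), with the E-boxes in capitals.
Ciart: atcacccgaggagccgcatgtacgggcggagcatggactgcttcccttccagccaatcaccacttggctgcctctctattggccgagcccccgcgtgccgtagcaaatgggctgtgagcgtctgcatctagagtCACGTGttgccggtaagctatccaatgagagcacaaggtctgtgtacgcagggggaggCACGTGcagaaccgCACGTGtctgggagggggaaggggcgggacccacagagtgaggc
The *Ciart* transcript was at 8.10, 11.0 and 11.0 CPM in fed and at 3.97, 6.36, 5.87 and 3.10 CPM in fasted AgRP libraries, and at 3.65 and 5.65 CPM in fed and 8.89 and 5.46 CPM in fasted POMC libraries. It fell in AgRP neurons and overlapped between states in POMC neurons, where the pair numbered 2 hardly moved.

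Genes called in opposite directions within the lines numbered 3. *Nptx2*, which encodes a secreted pentraxin that gathers AMPA receptors at synapses, was at 76.3, 102 and 69.9 CPM in fed and at 139, 166, 164 and 102 CPM in fasted AgRP libraries. It was at 147 and 93.2 CPM in fed and at 87.5 and 56.6 CPM in fasted POMC libraries. In AgRP neurons the ranges just failed to overlap, with fed 3 and fasted 4 at nearly the same level, while every same-numbered pair went up there and both went down in POMC neurons. The effects were 0.70 (FDR = 0.000193) and -0.73 (FDR = 0.0223).

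*Cthrc1*, a secreted protein of collagen-rich matrix, rose in AgRP neurons from 25.7, 21.5 and 18.98 CPM to 44.5, 36.4, 39.4 and 33.8 CPM and fell in POMC neurons from 24.5 and 18.0 CPM to 12.7 and 11.7 CPM. *Fbn2*, the fibrillin 2 gene of extracellular microfibrils, rose from 4.36, 3.59 and 2.73 CPM to 6.00, 5.86, 6.43 and 4.61 CPM and fell from 8.52 and 6.42 CPM to 3.80 and 2.66 CPM. The states did not overlap in either line for both genes. The differences were 1.63 for *Cthrc1*, 1.89 for *Fbn2* and 1.44 for *Nptx2*, and without the block they were 1.61, 1.88 and 1.52 with FDR values of 0.0504, 0.102 and 0.215.

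Calls in POMC neurons were few, and the 7 genes lowered there were *Asb4*, *Prok2*, *Nptx2*, *Cthrc1*, *Fbn2*, *Slc13a3* and *Zranb2*. *Asb4*, a subunit of a ubiquitin ligase complex, was at 709 and 324 CPM in fed and at 153 and 112 CPM in fasted POMC libraries. In AgRP neurons it was at 225, 248 and 195 CPM when fed and at 227, 160, 202 and 206 CPM when fasted, with full overlap. It fell in POMC neurons by 1.88 on the log2 scale (SE 0.14, FDR = 0.00104), the AgRP effect was -0.07, and the difference was 1.81 (SE 0.19, FDR = 0.0011). *Prok2*, a secreted peptide that signals from the clock and restrains feeding, went from 11.5 and 7.63 CPM to 2.49 and 3.17 CPM in POMC neurons and was between 0.892 and 2.03 CPM in all 7 AgRP libraries (difference 2.23, SE 0.36, FDR = 0.00756). *Asb4*, *Prok2* and *Zranb2* were singled out after their values were seen, for passing the test in POMC neurons.

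A broader look at this side took genes with a called difference, an AgRP effect within 0.3 of 0 and a POMC effect beyond 0.5. There were 14 with a higher and 6 with a lower effect in AgRP neurons. Besides *Asb4* and *Zranb2*, the 14 included *Stat3*, the prokineticin receptor *Prokr2* (POMC effect -0.85), the collagen chaperone *Serpinh1* (-0.68), the heat shock co-chaperone *Bag3* (-0.85) and *Vim* (-1.04), which is also a tanycyte marker. The 6 included the lipase *Pnpla7* (0.82) and the phosphatase *Inpp5k* (0.64). The POMC effects of these 20 genes were not called on their own, other than those of *Asb4* and *Zranb2*.

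Markers of leptomeningeal fibroblasts moved with this side. On a list added after the values were seen, all 10 genes tested were below 0 in POMC neurons (median -1.24), against 49.4% of all genes. For the difference 3 were called higher, against 3.76% of all genes. They were *Slc22a6* (3.65), *Fmod* (3.61) and *Ogn* (2.15). The count of 3 became 1 with DESeq2 and 2 with RLE scaling or with the leptin libraries added. That count was 0 without any 1 of the 4 POMC libraries, without the block and under edgeR's older robust fit, 1 without either AgRP library numbered 3, and 6 of 9 without the 4 libraries high in *Slc1a2*. Their summed level was 102 and 175 CPM in fed and 39.4 and 71.0 CPM in fasted POMC libraries and lay between 29.5 and 73.2 CPM in AgRP libraries. *Fmod*, which encodes the matrix proteoglycan fibromodulin, was at 15.2 and 17.6 CPM in fed and at 2.34 and 3.68 CPM in fasted POMC libraries, and in AgRP neurons it stood at 9.88 CPM in fasted 3 and between 1.22 and 2.37 CPM in the other 6. The part of such cells in the falls of *Fbn2*, *Cthrc1* and *Serpinh1*, which are matrix genes, was not tested.

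Few genes moved alike in both lines by call. *Slc13a3*, a dicarboxylate transporter, was the single gene lowered in both: it went from 6.61, 6.57 and 9.39 CPM to 2.49, 3.47, 4.36 and 4.99 CPM in AgRP and from 16.5 and 15.3 CPM to 5.18 and 6.88 CPM in POMC neurons. The 3 genes raised in both were *Mir6236* and the unnamed transcripts *AK144265* and *AK155692*. *Mir6236* was at 1.44, 1.96 and 7.92 CPM in fed and at 9.34, 4.25, 8.50 and 56.0 CPM in fasted AgRP libraries and went from 1.33 and 3.78 CPM to 6.79 and 36.5 CPM in POMC libraries. Its highest values in each state and line were in the libraries high in *Slc1a2*. The remaining pairs went up as well, by 2.62 and 2.06 on the log2 scale in AgRP and by 2.27 in POMC neurons, and the difference between the lines was -0.37 with those 4 libraries and 0.03 without them. Libraries of this kind do not keep strand, so reads of overlapping or antisense transcripts cannot be separated.

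A stricter reading of a shared effect asked that the 95% interval of the difference lie within 0.5 of 0. That held for 5737 of the 13442 genes, and among genes called in AgRP neurons for 15 that fell and 3 that rose. The choice of these 18 genes fixes that the POMC effect has the same sign. *Plagl1*, an imprinted zinc finger factor, was at 450, 533 and 422 CPM in fed and at 265, 231, 286 and 300 CPM in fasted AgRP libraries and went from 599 and 442 CPM to 367 and 328 CPM in POMC libraries, with a difference of -0.15 (interval -0.46 to 0.16). *Gch1*, the first enzyme of tetrahydrobiopterin synthesis, had effects of -0.72 and -0.85, *Igfbp5*, an IGF-binding protein, -0.54 and -0.63, and *Adcyap1*, the PACAP peptide, -0.52 and -0.48. The 3 that rose were *Slc7a1* (a cationic amino acid transporter), *Eda* (ectodysplasin A) and *6430573F11Rik*.

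Targets of glucocorticoids and genes of cholesterol synthesis were called within AgRP neurons. In POMC neurons 0 of either list passed, where 0.0223% of all genes tested were called raised and 0.0521% lowered. The glucocorticoid list held the receptor genes *Nr3c1* and *Nr3c2* besides targets. Of its 21 genes tested, 11 rose in AgRP neurons, against 4.02% of all genes. The median effects were 0.57 in AgRP and 0.27 in POMC neurons. *Fkbp5*, a feedback regulator of the receptor, had effects of 0.86 and 0.58 and a difference of 0.28 (interval -0.22 to 0.78), and *Plin4*, a lipid droplet protein, 1.42 and 1.47. For the difference 5 of the 21 were called higher, against 3.76% of all genes. They were the cell cycle inhibitor *Cdkn1a* (2.25), *Gpd1* (1.00), *Errfi1* (0.94), the metallothionein *Mt2* (0.92) and the kinase *Sgk1* (0.72). The 5 became 2 without any 1 of the 4 POMC libraries or either AgRP library numbered 3, 1 without the block, and 5 higher and 4 lower without the 4 libraries high in *Slc1a2*. *Cdkn1a* was at 14.2 to 20.9 CPM in fed and at 90.2 to 126 CPM in fasted AgRP libraries and at 18.3 and 24.6 CPM in fed and 24.3 and 30.6 CPM in fasted POMC libraries. Of 24 cholesterol synthesis genes, 5 fell in AgRP neurons, against 3.08% of all genes. The median effects were -0.35 in AgRP and -0.17 in POMC neurons. *Cyp51* (0.61) and *Ebp* (0.60) were called higher for the difference, against 3.76% of all genes. Neither call held without a library of the POMC pair numbered 1 or the AgRP pair numbered 3.

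The other large differences above 0 were in genes of low or moderate level. *Adgrg2*, an adhesion G protein-coupled receptor, was at 15.7, 12.9 and 9.19 CPM in fed and at 82.6, 61.5, 83.0 and 50.2 CPM in fasted AgRP libraries and between 9.18 and 12.0 CPM in POMC libraries (2.31, SE 0.14, FDR = 0.000124). *Lyve1*, a hyaluronan receptor, went from 0.367 to 1.46 CPM in fed to 18.4 to 36.6 CPM in fasted AgRP libraries and was between 0.45 and 1.05 CPM in POMC libraries (4.07, SE 0.38). *Sphk1*, the kinase that makes sphingosine 1-phosphate, went from 0.488 to 0.793 CPM to 4.99 to 15.3 CPM and was between 0.146 and 0.859 CPM in POMC libraries (4.67, SE 0.78). *Nfkbiz* (2.44), *Dusp5* (2.61) and *Procr* (3.85) were further genes of this kind. *Lyve1* and *Sphk1* had a mean under 1 CPM in POMC libraries, where a small change would not have been detectable.

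**Figure D4:**
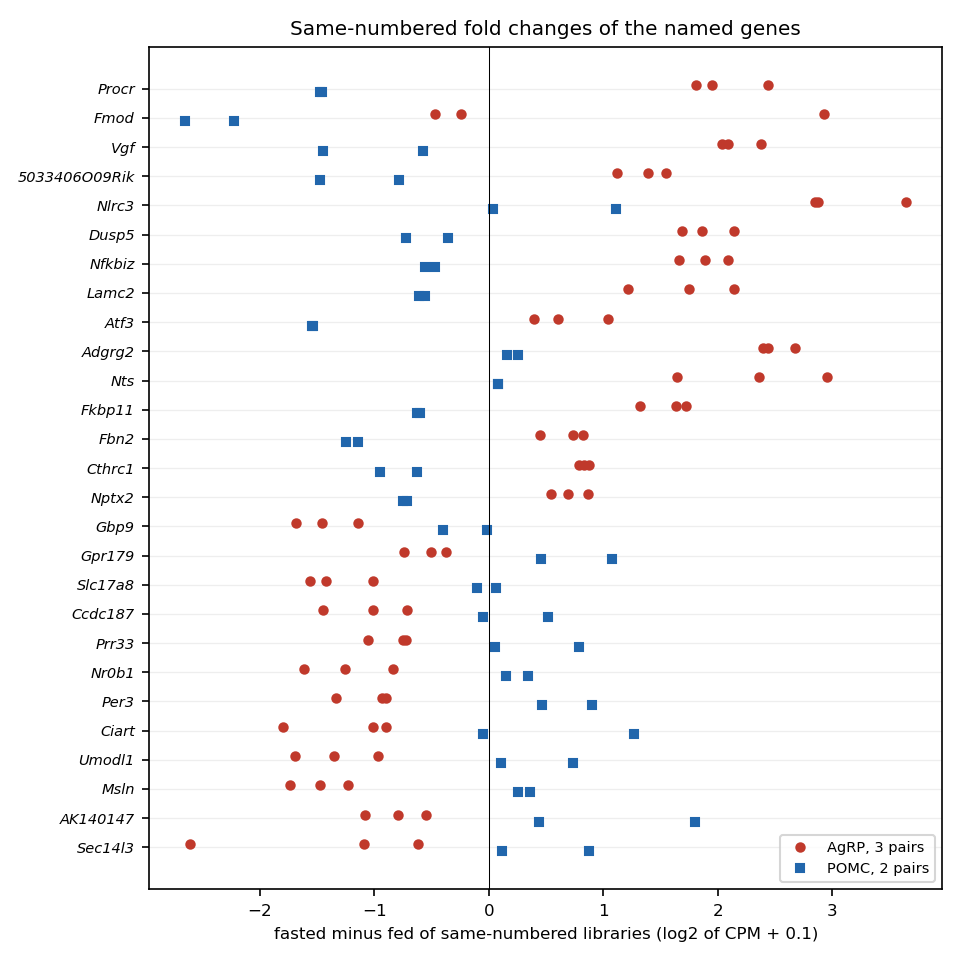
Fasted minus fed value (log2 of CPM + 0.1) of each same-numbered pair for the 12 highest and 12 lowest differences among genes detected in both lines and for the 3 genes called in opposite directions. The 3 AgRP pairs (red circles) and the 2 POMC pairs (blue squares) do not overlap for any gene, which the choice of the genes fixes, and *Fmod* and *Sec14l3* show the widest spread between AgRP pairs.

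Channels and transmitter genes had few calls. Of 73 potassium channel genes tested, 6 were called higher, against 3.76% of all genes, and 0 lower, while the list's median was -0.17. *Kcnab1*, an auxiliary subunit, went from 47.9 to 53.2 CPM to 97.1 to 118 CPM in AgRP neurons and lay between 48.3 and 59.4 CPM in POMC libraries (1.01, SE 0.13), and the leak channel *Kcnk1* had 0.97. The vesicular glutamate transporter *Slc17a8* (-1.35), the GABA-A receptor subunit *Gabra3* (-0.54) and the NMDA receptor subunit *Grin2d* (-0.58) had lower effects in AgRP neurons, 2 of 22 GABA and glutamate genes and 1 of 6 NMDA receptor subunits, against 1.58% of all genes. Of 19 alternatives, *Slc17a8* lost its call in 7, *Gabra3* in 9 and *Grin2d* in 10.

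Chromatin of AgRP nuclei in the same states was measured by ATAC-seq in 2 fed and 2 fasted libraries of sorted nuclei, separate from the RNA. ATAC-seq libraries of leptin-treated mice were in the same fit and entered the filter, the scaling and the estimate of the spread. Of 102198 peaks tested, 18514 opened with fasting (18.1%) and 9042 closed (8.85%). Fed library 1 was the shallowest, with 8263234 counts against 14324992 to 15745558 in the other fed and fasted libraries. ATAC-seq of POMC nuclei was not analysed here, so the chromatin values describe the AgRP side alone. A gene was matched to the annotation by its symbol, which gave 12594 of the 13442 genes, and to peaks by a centre within 1 kb of a start site.

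Genes with a lower fasting effect in AgRP neurons more often had a closing peak at the start site. Of 201 such genes 26 (12.9%) had one, against 3.80% of all 12594 genes. Of 484 genes with a higher effect 23 (4.75%) had an opening peak, against 1.22%. Peaks also went the other way. An opening peak stood at 4 of the 201 (1.99%) and a closing peak at 11 of the 484 (2.27%), against the same shares of all genes. These shares are given as a description, with no test. Among genes lowered in AgRP neurons with no called difference, 5.82% had a closing peak, and among genes raised there with no called difference, 6.22% had an opening peak. Of 199 genes whose difference was called higher while the AgRP effect was not, 1.01% had an opening peak.

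The closing peaks included those of 3 clock genes. At *Bhlhe40* the peak at chr6:108659148-108660929 was at 152 and 158 CPM in fed and at 93.1 and 105 CPM in fasted nuclei, an effect of -0.65 (edgeR FDR = 0.000309). At *Ciart* the peak at chr3:95881857-95883122, which holds the promoter shown above, was at 90.3 and 104 CPM in fed and at 53.1 and 62.1 CPM in fasted nuclei (-0.76, FDR = 0.000827), and at *Per3* the effect was -0.53 (FDR = 0.0214). Opening peaks stood at *Nts* (2.24), *Sphk1* (1.62), *Cdkn1a* (1.33) and *Lyve1* (0.92), whose RNA rose in AgRP neurons. The *Nts* peak was low, at 0.868 and 0.504 CPM in fed and 3.82 and 2.3 CPM in fasted nuclei. Other peaks went against the RNA. A low peak at *Slc17a8* opened (2.4), from 0.744 and 1.58 CPM to 6.95 and 6.54 CPM, while its RNA effect in AgRP neurons was -1.36. Peaks closed at *Nmbr* (-0.63) and at the proteasome subunit gene *Psma1* (-0.51), both called higher for the difference. Peaks within 1 kb of the start sites of *Vgf*, *Scg2*, *Lepr*, *Manf* and *Nptx2* were not called, with effects between -0.08 and 0.07. Within 50 kb, the opened and closed peaks numbered 5 and 0 for *Vgf* and 5 and 1 for *Scg2*. They numbered 1 and 1 for *Lepr*, 0 and 1 for *Manf* and 1 and 1 for *Nptx2*. Of all 12594 genes, 59.2% had an opened and 30.5% a closed peak within 50 kb. *Asb4*, whose RNA was level in AgRP neurons, had a closing peak, at 54.3 and 40.1 CPM in fed and 24.4 and 18.6 CPM in fasted nuclei (-1.12, FDR = 0.000515).

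**Figure D5:**
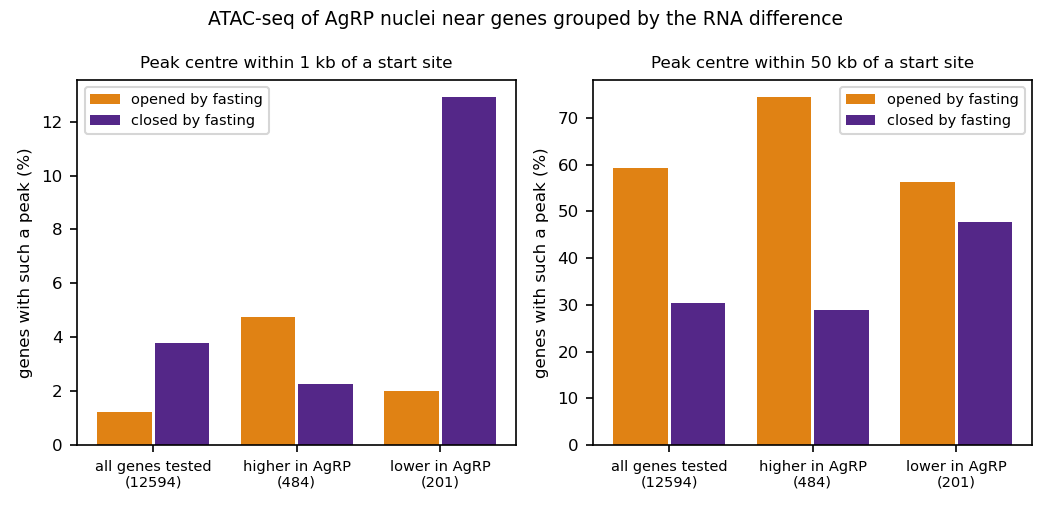
Share of genes (%) with a peak of AgRP nuclei that opened (orange) or closed (purple) with fasting, within 1 kb (left) and 50 kb (right) of a start site, for all 12594 genes matched, the 484 with a higher and the 201 with a lower effect in AgRP neurons. Closing peaks within 1 kb are at 12.9% of the last group against 3.80% of all genes, and opening peaks within 50 kb at 74.4% of the 484 against 59.2%.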

How the data were processed

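Ribosome-bound RNA of the 11 libraries was taken from the deposited table of raw counts per gene, which the authors made with HISAT2 and featureCounts on mm10 (GRCm38). ATAC-seq values were the authors' counts per peak (Bowtie2, MACS2, bedtools, mm10). Tool versions are not given in the sources used here, and the deposited log2 CPM tables were not used. Libraries were grouped by their labels.

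Genes with a mean over 1 CPM were kept. Counts were scaled by TMM and fitted with edgeR's quasi-likelihood test (edgeR 4.0.16, limma 3.58.1, R 4.3.3) on the 4 groups with the replicate number within line as a block. That fit left 3 residual degrees of freedom, to which the test added 6.75 prior ones estimated over all genes. The contrasts were the fasting effect in each line and their difference. A call needed a Benjamini-Hochberg FDR under 0.05 and an absolute log2 effect over 0.5. CPM values are TMM-scaled, and same-numbered log2 values used CPM + 0.1. ATAC-seq peaks were tested in the same way, without the block and with the leptin-treated ATAC-seq libraries in the fit. DESeq2 1.42.0, other scalings and filters, the leptin libraries added, no block and each library left out were the alternatives, and leaving out the 4 libraries high in *Slc1a2* was chosen after seeing the data.

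The labels give the replicate numbers. Residuals from the group means of same-numbered fed and fasted libraries correlated at 0.699 to 0.75 in the 3 AgRP pairs, against -0.592 to 0.372 for differently numbered ones. With 2 POMC pairs the 2 values mirror each other (0.732). On simulated counts of 13403 genes, the test of the difference recovered 93% of genes changed by 1 and 100% of genes changed by 2 on the log2 scale, with 7 false calls. Those counts were drawn around the fitted block means with the same fixed spread for every gene. The changed genes were picked from the more highly expressed ones. The recovery holds under these settings and does not give the power or error rate on the real counts.

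Totals were 25581041 to 38937168 reads in AgRP fed, 30229209 to 49641033 in AgRP fasted, 44598812 to 53217053 in POMC fed and 30704075 to 33424504 in POMC fasted libraries. Named genes were the 12 highest and 12 lowest differences among genes detected in both lines with non-overlapping pairs, the 4 highest and 4 lowest detected in 1 line, genes called in opposite directions, up to 8 raised and 8 lowered in both, called list members, and *Agrp*, *Npy*, *Pomc*, *Cartpt*, *Vgf* and *Socs3*. Not all of them are described. The comparison, the lists and the rule were chosen with earlier results of these data known. Other genes, such as those on the POMC side and those with a narrow interval, were named after their values were seen. Start sites came from GENCODE vM21.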

Additional observations from a re-analysis of the deposited data

Results flagged for a closer look

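The fasting effect differed between AgRP and POMC neurons by the edgeR test of the difference itself for 506 genes above and 213 below, and for 3 genes the lines were called in opposite directions: *Fbn2* (difference 1.89 on the log2 scale), *Cthrc1* (1.63) and *Nptx2* (1.44). All 3 AgRP pairs went up and both POMC pairs went down for each of them.

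Of 41 genes tested for a library far from the rest of the fasted AgRP group, 5 had one, where chance gives about 1 in 20. *Fmod* stood at 9.88 CPM in replicate 3 and at 1.69 to 2.00 CPM in the others, and *Slc22a6* at 1.38 CPM in the same library and at 0.206 to 0.233 CPM in the others. *Nr0b1* stood at 2.33 CPM in replicate 1 and at 1.26 to 1.42 CPM in the others. In replicate 4, 1 of the libraries high in *Slc1a2*, *Mir6236* stood at 56.0 CPM and *AK144265* at 44.3 CPM, against 4.25 to 9.34 and 4.71 to 10.4 CPM in the others.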

How the results depend on the processing

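All 719 genes with a called difference kept their direction in each of the 19 alternatives that gave them a value, but the counts moved. Without the replicate block, edgeR called 11 higher and 2 lower differences, 275 genes raised and 124 lowered in AgRP neurons, and 0 raised, 0 lowered, 0 shared and 0 opposite in POMC neurons, where 245 and 221 had an unadjusted p under 0.05. DESeq2 with the block called 25 raised and 52 lowered in POMC neurons, 12 raised and 14 lowered in both lines and 12 opposite. The same 5 counts were 22, 38, 7, 9 and 8 with the leptin libraries added. Library size alone gave 6 raised and 36 lowered in POMC neurons, 10 lowered in both and 8 opposite, and no filter gave 7, 30, 8 and 6. Without the 4 libraries high in *Slc1a2* there were 1008 higher and 833 lower differences, 685 genes lowered in AgRP neurons, 383 raised and 499 lowered in POMC neurons, 74 and 116 shared and 77 opposite, from 1 POMC pair with 1 residual degree of freedom. Leaving out 1 library at a time gave 142 (without POMC fed 1) to 678 higher and 16 (without POMC fasted 1) to 497 lower differences (both highest without AgRP fed 4). It gave 437 to 607 genes raised and 246 (without AgRP fed 1) to 560 lowered in AgRP neurons, 3 to 28 raised and 1 to 52 lowered in POMC neurons, 3 to 13 raised and 0 to 16 lowered in both, 0 to 14 opposite, and 11853 to 14517 opened and 4822 to 8445 closed ATAC-seq peaks. Leaving out a POMC library leaves 1 POMC pair, whose spread is assumed to be that of the AgRP pairs. No called difference changed sign. Differences that were not called did so for *Pomc* (-0.01433 without the block, -0.03235 without POMC fasted 1, -0.04626 without POMC fed 1), and, without POMC fasted 2, without POMC fed 2 and without the 4 libraries, for *Mir6236* (0.233, 0.2317 and 0.0338), *AK144265* (0.2606, 0.2593 and 0.163), *Agrp* (-0.5657, -0.566 and -0.6301) and *Npy* (-0.7103, -0.7106 and -0.7437), the last of which passed the test for *Agrp* (edgeR FDR = 1.03e-05) and *Npy* (edgeR FDR = 3.63e-09) on that 1 POMC pair. The other ends of their ranges with 1 library left out were 0.2337 for *Pomc*, -0.6902 for *Mir6236*, -0.7673 for *AK144265*, 1.5 for *Agrp* and 1.536 for *Npy*. The cause was not tested.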
